A study of Mus musculus with 6 samples.

Results

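The set described here holds 10 genes of lipid droplets and lipolysis, taken from the count table by their gene symbols: the perilipins Plin1 to Plin5, the fusion gene Cidec, the lipases Pnpla2 and Lipe, and the acyltransferases Dgat1 and Dgat2. All 10 were among the 32771 genes in the table, and all 10 were among the 19241 genes with enough counts to be tested. RNA was sequenced from aortas of wild-type mice in 6 libraries, and every mouse had received AngII/BAPN, a model of aortic dissection in which angiotensin II raises blood pressure and beta-aminopropionitrile blocks collagen and elastin cross-linking. In 3 libraries (replicates 5, 7 and 39) the mice also had an antibody to CTHRC1, a protein that activated fibroblasts secrete, and in the other 3 (replicates 14, 18 and 20) an isotype IgG. The labels give no strain, age, sex or dose, and no library without AngII/BAPN was analysed here. Nor do they state that each library is from an animal of its own, so the p-values rest on the spread among these 6 libraries, which may be technical.

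A lipid droplet is a core of triglyceride and sterol ester inside a single phospholipid layer, and the perilipins are the proteins that coat that layer. Triglyceride is completed by the DGAT enzymes and is broken down stepwise by ATGL, encoded by Pnpla2, and then by hormone-sensitive lipase, encoded by Lipe. Droplet-rich adipocytes lie in the fat around the aorta, and macrophages that have taken up lipid also form droplets. The transcript level of a gene in whole tissue is an average over such cells, so fewer cells of a type and less RNA per cell cannot be told apart.

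Upstream sequences of 4 droplet genes are shown as examples, and other genes of the set could have been chosen. The levels of these 4 differed in how closely they followed those of adipocyte markers. Plin3 and Plin4, which are not shown, departed further from the markers than any of the 4. Pnpla2 also had an upstream stretch that is not shown, with matches to GGGCGG. Whether a motif goes with following the markers was not tested. Plin1 and Cidec are coat and fusion genes of adipocytes, Plin2 coats droplets in most cell types, and Plin5 does so mainly in tissues that oxidise fatty acids. The stretches come from the RefSeq promoter windows of build GRCm38.p6 and keep the bases upstream of the start site that lie outside annotated genes, at chr7:79732905-79733026 for Plin1, chr6:113435761-113436010 for Cidec, chr4:86670218-86670309 for Plin2 and chr17:56117607-56117798 for Plin5, all on the minus strand and read 5′ to 3′. For Plin1, Plin2 and Plin5 the stretches stop short of the start site, which lies at 79732776, 86670059 and 56117548. Capitals mark matches on either strand to AGGTCA, the core hexamer of nuclear receptor sites, to GGGCGG, a GC box, or to CCAAT.
Plin1: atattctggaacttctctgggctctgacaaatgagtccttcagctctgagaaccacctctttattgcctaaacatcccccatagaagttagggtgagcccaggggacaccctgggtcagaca
Cidec: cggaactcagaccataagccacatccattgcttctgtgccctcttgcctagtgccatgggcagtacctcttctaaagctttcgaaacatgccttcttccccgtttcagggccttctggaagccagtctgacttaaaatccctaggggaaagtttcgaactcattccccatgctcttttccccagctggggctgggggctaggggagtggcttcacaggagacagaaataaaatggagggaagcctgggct
Plin2: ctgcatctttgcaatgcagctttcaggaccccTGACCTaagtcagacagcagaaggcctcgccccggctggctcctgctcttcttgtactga
Plin5: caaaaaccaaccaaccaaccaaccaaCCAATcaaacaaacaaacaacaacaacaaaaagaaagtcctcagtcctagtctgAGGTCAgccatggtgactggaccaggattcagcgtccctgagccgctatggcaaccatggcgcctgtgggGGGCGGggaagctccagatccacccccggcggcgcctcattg

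Of the 10 genes, 8 had a RefSeq window (Dgat1 and Dgat2 did not), and these held 11 windows in all. A set of 6 motifs was searched in the 250 bases before each start site on both strands. A gene was counted if any of its windows matched, while the shares of all windows are per window. Plin5, Cidec and Lipe, with more than 1 window, so had more room for a match. AGGTCA was found for 2 of the 8 genes, as TGACCT 218 bases before the start of Plin2 and as AGGTCA 170 bases before that of Plin5, and it occurred in 14% of all 32851 windows. The PPAR-type repeat, which is AGGTCA, any base N and AGGTCA again and so overlaps the hexamer, was found for 0 of the 8 and in 0.0335% of all windows. GGGCGG was found for Plin3, Plin5, Lipe and Pnpla2 (32.7% of all windows), and CCAAT for Plin2, Plin3, Plin4 and Plin5 (33.8%). TATAA was found for Plin4 and Plin5 (22.8%), and CACGTG, an E-box, for Lipe alone (6.02%), while the windows of Plin1 and Cidec held none of the 6. These matches describe letters in a short window and are not evidence of binding.

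Total counts, which summed all genes of a library, ran from 64556253 to 67859566 per library, and the 10 genes had from 700 counts (Plin5, lowest library) to 66951 counts (Pnpla2, highest library). There were 2 unusual libraries. The values of anti-CTHRC1 replicate 39 fell between those of replicates 5 and 7 for all 10 droplet genes. Over the 1748 genes at a mean of 10 CPM (counts scaled to library size) or more in which replicates 5 and 7 differed by over 0.5 on the log2 scale, they did so for 96.0%. In other sets of 3 libraries that share reached 83.5%. Skeletal muscle markers were an exception, with a sum of 430 CPM in replicate 39 against 58.4 and 43.7 CPM in replicates 5 and 7. It is not shown that replicate 39 is independent of replicates 5 and 7, so the SDs and p-values for 3 antibody libraries may rest on fewer independent ones. In IgG replicate 14, 266 genes exceeded every other library at least 4-fold, against 0 to 2 genes in the others, and it had a mitochondrial share of 12.3%, against 15.7% to 22.8%.

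All 10 droplet and lipolysis genes had a higher mean in anti-CTHRC1 libraries than in IgG libraries, with log2 fold changes of 0.40 to 1.55 and a median of 0.77, but 0 of the 10 passed the test over all genes (edgeR quasi-likelihood, adjusted p under 0.05). Over all genes tested, 47.7% had a positive log2 fold change, the median was -0.02, and 0.104% were called higher. At an unadjusted p under 0.05 in edgeR, 6 of the 10 were higher (Plin1, Plin2, Plin3, Lipe, Dgat1 and Dgat2), against a background of 7.80% of genes, while 0 were lower (9.31% of genes). With DESeq2, 3 were called higher (Plin1, Lipe and Dgat2), where 2.78% of genes were. The 2 groups did not overlap for 4 of them (Plin1, Lipe, Dgat1 and Dgat2), where 11.0% of genes had no overlap with the antibody group higher. Without anti-CTHRC1 replicate 39 and IgG replicate 14 the median log2 fold change was 0.69, 0 were called by edgeR, and the same 4 genes did not overlap, where 21.7% of all genes had no overlap with the antibody group higher.

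**Figure D1:**
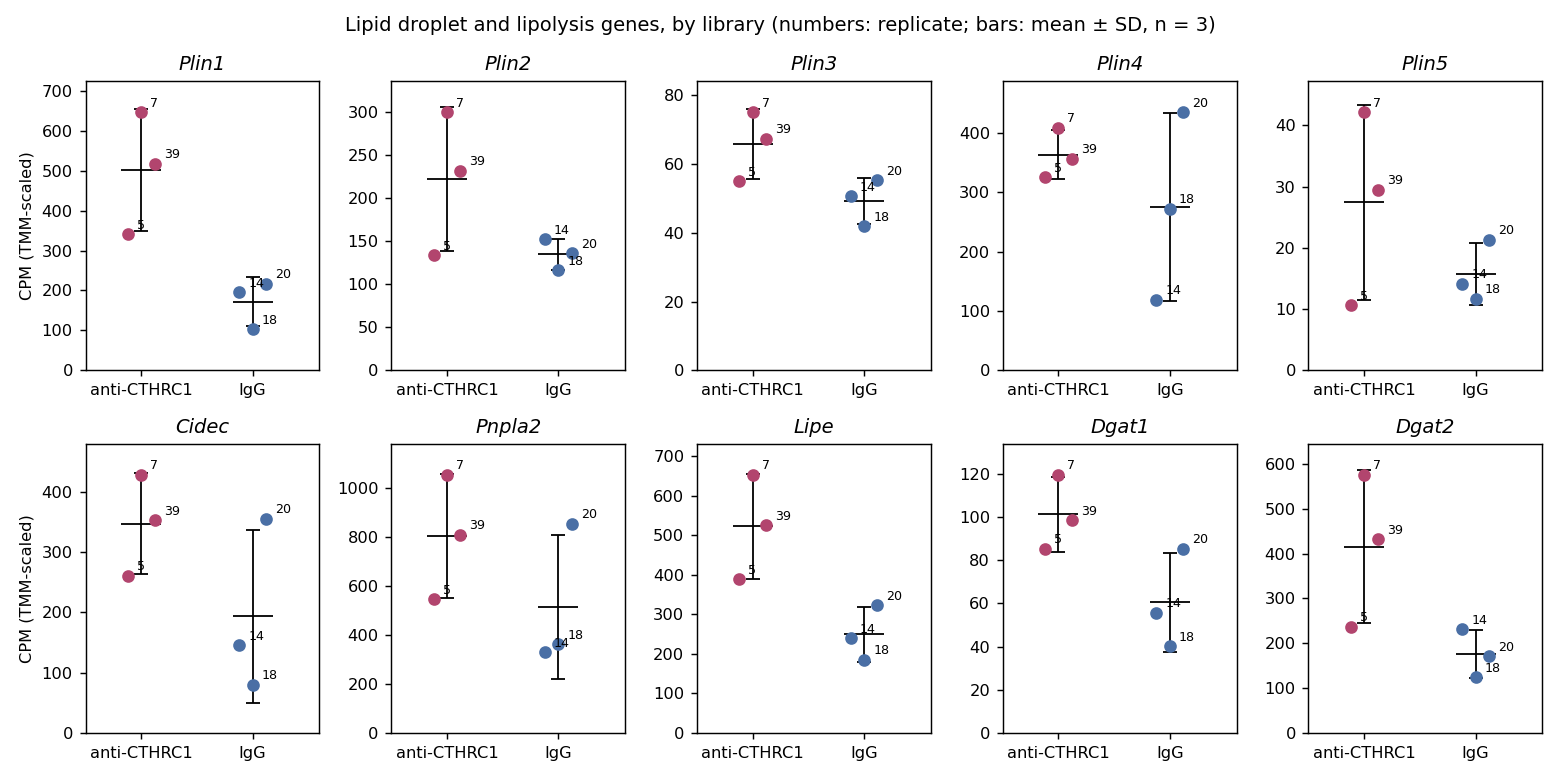
Level of each of the 10 genes (vertical axis, TMM-scaled CPM, starting at 0) in the 3 anti-CTHRC1 libraries and the 3 IgG libraries; each point is a library with its replicate number, and bars show the mean ± SD. The groups do not overlap for Plin1, Lipe, Dgat1 and Dgat2, and for the other 6 genes IgG replicate 20 lies above the lowest antibody library.

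The libraries kept a similar order across the genes. Anti-CTHRC1 replicate 7 was the highest library for 9 of the 10, with Plin4 highest in IgG replicate 20. IgG replicate 18 was the lowest for 7, IgG replicate 14 for Plin4 and Pnpla2, and anti-CTHRC1 replicate 5 for Plin5. The summed level of the 10 genes was 2385, 4305 and 3422 CPM in anti-CTHRC1 replicates 5, 7 and 39, against 1534, 1338 and 2654 CPM in IgG replicates 14, 18 and 20. The sum in IgG replicate 20 was above that in anti-CTHRC1 replicate 5.

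Plin1 (ENSMUSG00000030546, chromosome 7, 79720218 to 79732835, minus strand) encodes the adipocyte coat protein that restrains lipolysis at rest and admits the lipases once protein kinase A has phosphorylated it. Its level was 341, 647 and 517 CPM in anti-CTHRC1 replicates 5, 7 and 39, against 196, 102 and 217 CPM in IgG replicates 14, 18 and 20. Every antibody library was above every IgG library, and the spread within each group was smaller than the gap between their means. The means were 502 ± 154 CPM in anti-CTHRC1 libraries and 172 ± 61.0 CPM in IgG libraries (SD, n = 3 each), a log2 fold change of 1.55 (SE 0.34). The adjusted p was 0.130 by the edgeR quasi-likelihood test and 6.18e-05 by DESeq2. With each library left out in turn the log2 fold change was between 1.28 and 1.80, and DESeq2 called Plin1 in all 6 of those fits while edgeR called it in 0.

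Plin2, on chromosome 4 (86648386 to 86670060), encodes the droplet coat of most cell types, foamy macrophages among them. Its level was 134, 300 and 232 CPM in anti-CTHRC1 libraries, against 152, 116 and 136 CPM in IgG libraries. Anti-CTHRC1 replicate 5 lay within the IgG range, so the groups overlapped, with a log2 fold change of 0.72 (SE 0.29, edgeR adjusted p = 0.274). Plin3, on chromosome 17 (56277476 to 56292873), encodes a coat protein that moves between cytosol and droplets in many cell types. Plin3 had 55.1, 75.2 and 67.4 CPM in anti-CTHRC1 libraries, against 50.6, 42.0 and 55.3 CPM in IgG libraries. The highest IgG library just exceeded the lowest antibody library, and the log2 fold change was 0.42 (SE 0.16, edgeR adjusted p = 0.255).

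Plin4 and Plin5 lie next to each other on chromosome 17 on the minus strand (56100591 to 56109803 and 56111601 to 56117596), 1797 bases apart. Plin4, a coat protein of adipocytes and muscle, had 326, 409 and 357 CPM in anti-CTHRC1 libraries, against 119, 272 and 436 CPM in IgG libraries. The IgG libraries spanned the whole antibody range, and the log2 fold change of 0.40 (SE 0.42, edgeR adjusted p = 0.674) depended on which of them was included. It was 0.04 when IgG replicate 14 was left out and 0.93 when replicate 20 was. Plin5, which brings droplets close to mitochondria, had 10.6, 42.2 and 29.5 CPM in anti-CTHRC1 libraries, against 14.2, 11.7 and 21.3 CPM in IgG libraries. Its lowest value of all was in anti-CTHRC1 replicate 5, and the log2 fold change was 0.80 (SE 0.48, edgeR adjusted p = 0.447), with 0.35 without anti-CTHRC1 replicate 7.

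Cidec, on chromosome 6 (113424634 to 113435760), encodes the protein that passes lipid from small to large droplets and gives white adipocytes their single large droplet. It had 261, 428 and 352 CPM in anti-CTHRC1 libraries, against 145, 80.3 and 355 CPM in IgG libraries. IgG replicate 20 was level with anti-CTHRC1 replicate 39, while the other 2 IgG libraries were below every antibody library. The log2 fold change was 0.84 (SE 0.52, edgeR adjusted p = 0.453), and leaving out IgG replicate 20 gave 1.67 while leaving out replicate 18 gave 0.47.

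Pnpla2, on the plus strand of chromosome 7 (141455198 to 141460743), encodes ATGL, the enzyme of the first step of triglyceride breakdown. It had 546, 1054 and 810 CPM in anti-CTHRC1 libraries, against 330, 363 and 854 CPM in IgG libraries. Here too IgG replicate 20 lay within the antibody range, and the log2 fold change was 0.64 (SE 0.42, edgeR adjusted p = 0.485), with 1.26 without that library. Lipe, on chromosome 7 (25379527 to 25398710, minus strand), encodes hormone-sensitive lipase, which cleaves diglyceride. Lipe had 389, 653 and 525 CPM in anti-CTHRC1 libraries, against 239, 185 and 323 CPM in IgG libraries. All 3 antibody libraries were above the highest IgG library, with a log2 fold change of 1.07 (SE 0.27), an edgeR adjusted p of 0.155 and a DESeq2 adjusted p of 0.00152. DESeq2 called Lipe in 5 of the 6 fits that left out 1 library, and without anti-CTHRC1 replicate 7 its DESeq2 adjusted p was 0.0503. Lipe lies within the opposite-strand gene 4732471J01Rik, which had 31 to 97 counts per library where Lipe had at least 12482. Plin4 overlaps the opposite-strand gene Hdgfl2 by 17 bases.

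Dgat1 and Dgat2 encode unrelated enzymes that both join the last fatty acid to triglyceride. Dgat1, on chromosome 15 (76502015 to 76511951), had 85.5, 120 and 98.6 CPM in anti-CTHRC1 libraries, against 55.7, 40.3 and 85.4 CPM in IgG libraries. The lowest antibody library and the highest IgG library were almost equal, and the log2 fold change was 0.74 (SE 0.28, edgeR adjusted p = 0.255). Dgat2, on chromosome 7 (99153658 to 99182719), had 237, 576 and 433 CPM in anti-CTHRC1 libraries, against 232, 124 and 171 CPM in IgG libraries. Its groups did not overlap, but anti-CTHRC1 replicate 5 was close to IgG replicate 14, and the log2 fold change was 1.24 (SE 0.36, edgeR adjusted p = 0.190, DESeq2 adjusted p = 0.00444). DESeq2 called Dgat2 in 3 of the 6 fits that left out 1 library, and the call was lost without anti-CTHRC1 replicate 7 (DESeq2 adjusted p = 0.121), replicate 39 (0.0986) or IgG replicate 18 (0.0796).

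**Figure D2:**
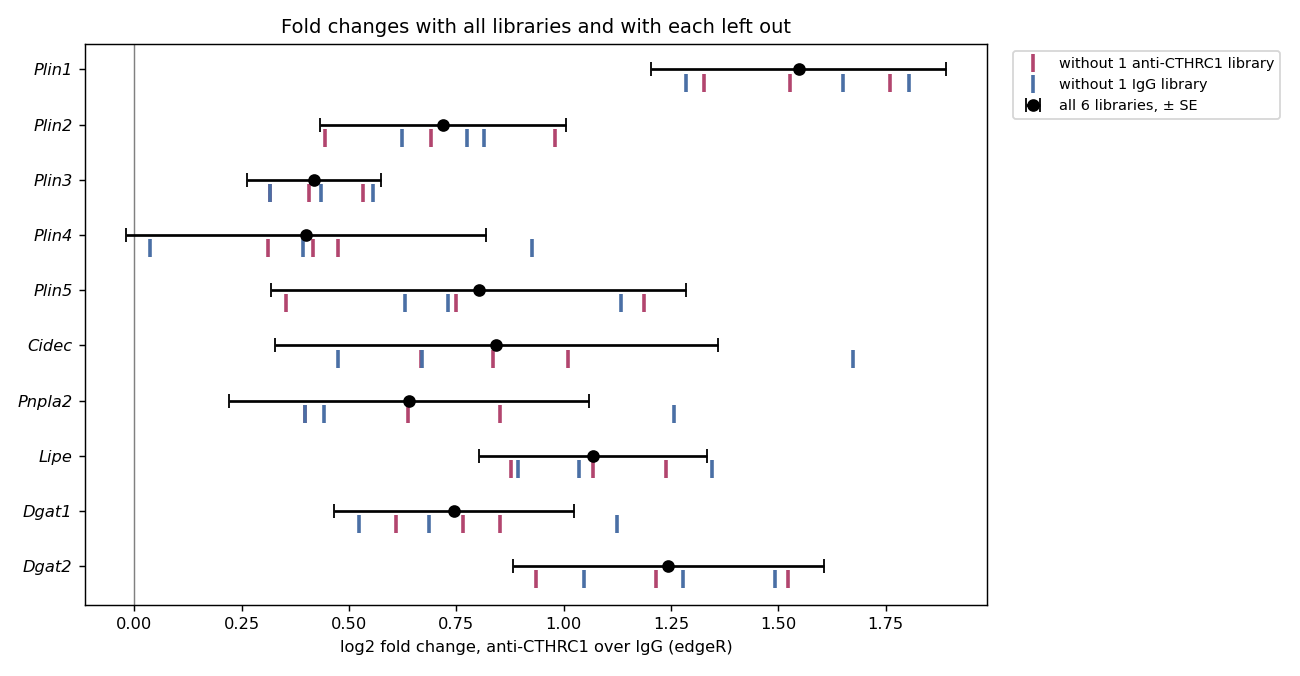
Log2 fold change of each gene (horizontal axis, anti-CTHRC1 over IgG, edgeR) with all 6 libraries (black point, bar ± SE) and with 1 anti-CTHRC1 library (red ticks) or 1 IgG library (blue ticks) left out. Every value is above 0, and the ticks of Plin4 run from 0.04 to 0.93 and those of Cidec from 0.47 to 1.67.

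The counts of these genes depended on single libraries. Without IgG replicate 20, the groups did not overlap for 8 of the 10 genes, all but Plin2 and Plin5, where 17.1% of all genes had no overlap with the antibody group higher. They did not overlap for 7 of the 10 when anti-CTHRC1 replicate 5 was left out (19.4% of all genes), and for 4 when any of the other libraries was (13.1% to 18.8% of all genes). DESeq2 called 6 of the 10 higher when anti-CTHRC1 replicate 5 was left out (5.42% of all genes), 1 when replicate 7 was (1.50%), and 6 when IgG replicate 20 was (3.49%). With the other libraries left out it called 2 or 3 of the 10, where 1.01% to 5.45% of all genes were called higher.

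Levels of different genes were compared on the deposited FPKM, which divide by transcript length. Pnpla2 was the most abundant of the 10, with 246 ± 72.0 FPKM in anti-CTHRC1 libraries and 162 ± 78.2 FPKM in IgG libraries (SD, n = 3 each), followed in both groups by Cidec and Dgat2. Pnpla2 exceeded Cidec, and Cidec exceeded Dgat2, in each of the 6 libraries, although their ranges overlapped over the anti-CTHRC1 libraries. Plin1 had the fourth highest mean FPKM in anti-CTHRC1 libraries (99.9 ± 28.3) and the seventh in IgG libraries (35.9 ± 12.8), where the means of Lipe, Plin4 and Plin2 (40.9, 40.9 and 37.6 FPKM) were above it by less than its SD. Plin5 had the lowest mean, 12.1 ± 6.80 FPKM in anti-CTHRC1 libraries and 7.25 ± 1.84 FPKM in IgG libraries. Between the highest and the lowest of the 6 libraries, FPKM differed 5.93-fold for Plin1 and 1.68-fold for Plin3, the ends of the range over the 10 genes.

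In the makeup of the perilipin transcripts, the shares of Plin1 and Plin3 did not overlap between the groups. Plin1 made up 40.2%, 42.3% and 41.9% of the summed perilipin FPKM in anti-CTHRC1 replicates 5, 7 and 39, against 33.9%, 19.2% and 26.1% in IgG replicates 14, 18 and 20. The antibody libraries were close to each other and above every IgG library, while the IgG libraries were spread out. Plin4 had 28.1%, 19.6% and 21.2% in anti-CTHRC1 libraries, against 15.1%, 37.4% and 38.4% in IgG libraries. Plin4 was the largest share in IgG replicates 18 and 20, while Plin2 was in IgG replicate 14 (34.9%). Plin3 had 7.98%, 6.03% and 6.70% in anti-CTHRC1 libraries, against 10.7%, 9.67% and 8.17% in IgG libraries, so every antibody library was below every IgG library. The mean share of Plin5 was 4.74% in anti-CTHRC1 libraries and 5.35% in IgG libraries. The shares of a library add up to the whole, so a higher share of Plin1 lowers those of the others. Plin3 itself had a higher mean level in anti-CTHRC1 libraries (log2 fold change 0.42). How often shares would separate for other sets of genes was not counted.

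**Figure D3:**
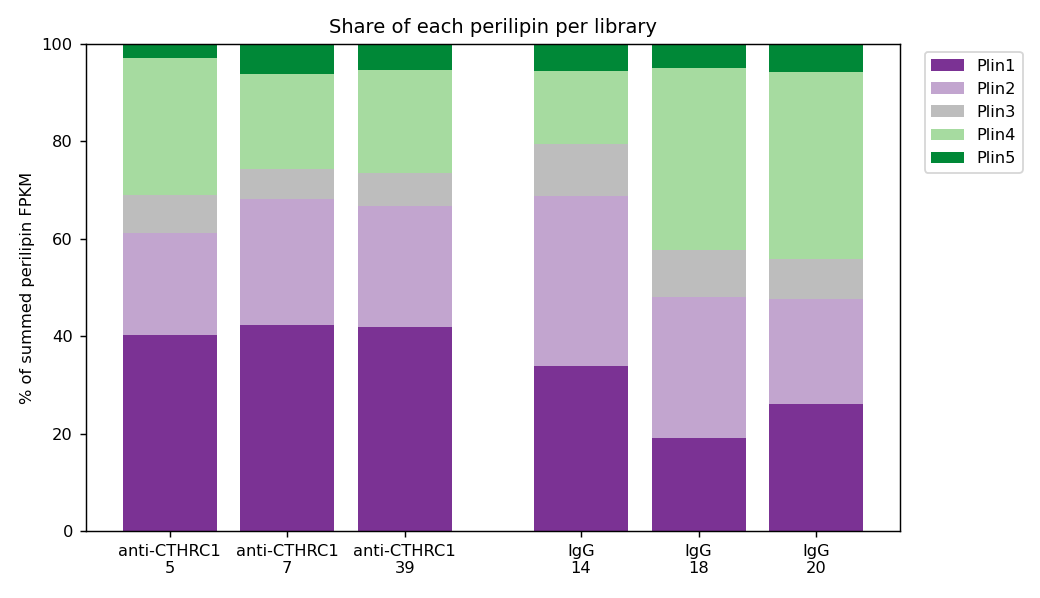
Share of each perilipin in the summed FPKM of Plin1 to Plin5 (vertical axis, %) in each anti-CTHRC1 library and each IgG library; each bar is a library and colours are genes. Plin1 takes 40.2% to 42.3% in the anti-CTHRC1 bars and 19.2% to 33.9% in the IgG bars.

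The balance between partner genes was compared as 9 log2 CPM ratios per library by an exact two-sided permutation test, whose smallest possible p with 3 against 3 libraries is 0.1. Plin2/Plin1 was -1.20 ± 0.13 in anti-CTHRC1 libraries and -0.28 ± 0.43 in IgG libraries (SD, n = 3 each, difference -0.92, exact permutation p = 0.1, adjusted p = 0.45 over the 9). Plin5/Plin1 differed by -0.94 with the same p, and these were the 2 ratios whose groups did not overlap. Plin4/Plin1 differed by -0.99, with IgG values of -0.72, 1.41 and 1.01 that lay apart from each other. Within the lipolytic pathway, Lipe/Pnpla2 differed by 0.34 (exact permutation p = 0.4). The ratio to Pnpla2 of its activator Abhd5 differed by -0.15 (exact permutation p = 0.6), and that of its inhibitor G0s2 by -0.07 (exact permutation p = 1). Dgat1/Dgat2 differed by -0.40 (exact permutation p = 0.4).

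Adipocyte markers moved with these genes. All 10 of the adipocyte list had positive log2 fold changes (1.21 to 2.48, median 1.50), 10 of 10 at an unadjusted p under 0.05 and 1, the leptin gene Lep, past the edgeR threshold, with 9 called by DESeq2. Their summed level was 5391, 9398 and 7684 CPM in anti-CTHRC1 replicates 5, 7 and 39, against 2721, 1650 and 3818 CPM in IgG replicates 14, 18 and 20, with no overlap between the groups. The part of this in the droplet gene values was not tested. Over all genes tested, 7.80% were higher at an unadjusted p under 0.05 and 0.104% were called higher by edgeR. DESeq2 called 2.78% higher, of the 21182 genes to which it gave an adjusted p. These shares are also the background for higher genes in the lists below. Lep had an edgeR adjusted p of 0.0412, which lost the call without IgG replicate 18 or without any one anti-CTHRC1 library (up to 0.271). Adipoq, which encodes adiponectin, had 442, 762 and 613 CPM in anti-CTHRC1 libraries, against 238, 131 and 358 CPM in IgG libraries. Among the most abundant markers of the list, Thrsp overlapped between the groups (316 CPM in anti-CTHRC1 replicate 5, 343 CPM in IgG replicate 14). Cfd was the marker that DESeq2 did not call (DESeq2 adjusted p = 0.133).

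Each gene was also set against the mean log2 CPM of the 10 adipocyte markers in the same library. That mean was itself 1.63 higher in the antibody group, so over all 19241 genes tested the relative level had a median difference of -1.64, and 85.1% were lower in the antibody group without overlap. For Plin1 the relative level was 1.55 ± 0.05 in anti-CTHRC1 libraries and 1.61 ± 0.18 in IgG libraries (log2, SD, n = 3 each), a difference of -0.06 that was smaller than the spread between IgG libraries. The differences of the other 9 were -0.44 (Dgat2) to -1.22 (Plin3), all nearer to 0 than that median. The antibody group was below the IgG group without overlap for 6 of the 10 (Plin2, Plin3, Plin5, Lipe, Pnpla2 and Dgat1), a smaller share than the 85.1% of all genes. Relative to Adipoq alone, Plin1 had a difference of 0.17, and the other 9 had differences of -0.20 (Dgat2) to -0.99 (Plin3). These relative levels are a description with no test.

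**Figure D4:**
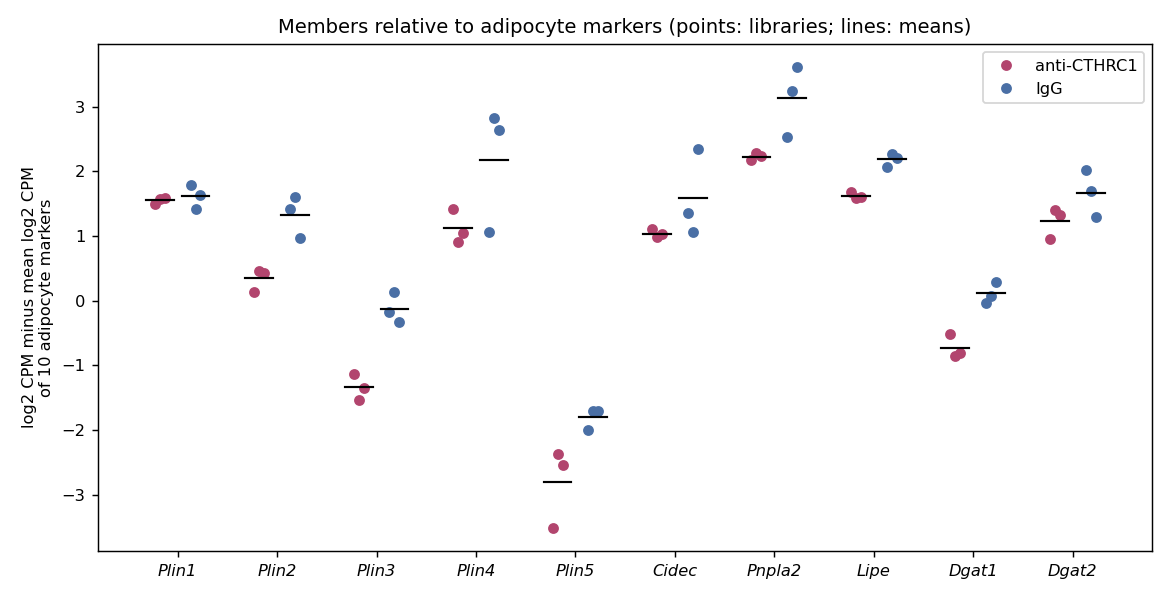
Log2 CPM of each gene minus the mean log2 CPM of 10 adipocyte markers in the same library (vertical axis), for anti-CTHRC1 libraries (red) and IgG libraries (blue); points are libraries and lines are means. Plin1 lies at the same height in both groups, and for 6 genes every anti-CTHRC1 point is below every IgG point, as for 85.1% of all genes tested on this scale.

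Markers of other cells that hold droplets did not follow the same order. The 9 tested brown adipocyte markers had a median log2 fold change of 0.74 and 0 past the edgeR threshold (1 at an unadjusted p under 0.05 and 1 by DESeq2). Their sum was 396, 1358 and 898 CPM in anti-CTHRC1 replicates 5, 7 and 39. In IgG replicates 14, 18 and 20 it was 472, 576 and 446 CPM. Anti-CTHRC1 replicate 5, the lowest library for Plin5, also had the lowest sum and the lowest mean log2 CPM of this list. By gene, that library was lowest for Ucp1, Elovl3, Lhx8 and Cpt1b, but not for Dio2, Cox7a1, Cox8b, Prdm16, Otop1 or Zic1. Ucp1, the uncoupling protein of brown fat, had 162, 840 and 536 CPM in anti-CTHRC1 libraries, against 301, 315 and 193 CPM in IgG libraries. Macrophage markers had 0 of 10 positive values (median -0.76), with 8 lower at an unadjusted p under 0.05, 6 by DESeq2 and 1, Mpeg1, by edgeR, and their sum was 502 to 638 CPM in anti-CTHRC1 libraries and 777 to 1234 CPM in IgG libraries. Markers of lipid-laden macrophages had 1 of 10 positive (median -0.67), with 6 lower at an unadjusted p under 0.05. Of these 10, 5 were called lower by DESeq2 and 3 (Trem2, Spp1 and Lgals3) by edgeR. Apoe and Ctsd, the most abundant of the list, had log2 fold changes of -0.09 and 0.10. The summed level of the list overlapped, with 2547 to 3650 CPM in anti-CTHRC1 libraries and 3292 to 3956 CPM in IgG libraries. Its mean log2 CPM, in which each gene has the same weight, did not overlap. That mean was 5.81 to 5.99 in anti-CTHRC1 libraries and 6.79 to 6.90 in IgG libraries. Over all 19241 genes tested, 9.31% were lower at an unadjusted p under 0.05, and 863 were called lower by DESeq2 and 41 by edgeR.

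Smooth muscle markers, the defining ones of the aortic wall, were abundant in every library (Acta2 at 1003 to 2587 CPM in anti-CTHRC1 libraries and 1569 to 3766 CPM in IgG libraries) and had 0 of 10 positive (median -0.62), with 3 lower at an unadjusted p under 0.05, 2 by DESeq2 and 0 by edgeR. Fibroblast markers had 9 of 10 positive (median 0.46), with 4 higher at an unadjusted p under 0.05, 3 by DESeq2 and 0 by edgeR. Endothelial markers had 6 of 10 positive (median 0.06) and 0 by each of these, and leaving out anti-CTHRC1 replicate 7 gave a median of -0.01, while leaving out IgG replicate 14 gave -0.14. Heart muscle markers had 8 of 10 positive, with 4 higher at an unadjusted p under 0.05 and 4 by DESeq2. Of the 10, 3 were called higher by edgeR (Myl7, Myl4 and Sln). The highest sum of the list was in IgG replicate 14 (792 CPM), where Myh6 and Actc1 had 289 and 276 CPM. The 3 genes called by edgeR were low in that library (1.09, 6.09 and 0.211 CPM). These edgeR marker calls were lost without anti-CTHRC1 replicate 7, replicate 39 or IgG replicate 18, and all but that of Myl4 without anti-CTHRC1 replicate 5. Skeletal muscle markers had 10 of 10 positive (median 0.97, 0 called by edgeR or DESeq2 and 0 at an unadjusted p under 0.05), but their sum was 58.4, 43.7 and 430 CPM in anti-CTHRC1 replicates 5, 7 and 39, against 212, 54.2 and 35.7 CPM in IgG replicates 14, 18 and 20. Replicate 39 was far above the other antibody libraries, and when it was left out 1 of 10 was positive (median -0.93). Red cell markers had 6 of 6 positive (median 0.46, likewise 0 by all of these). When anti-CTHRC1 replicate 7 was left out, 3 of 6 were positive (median 0.01). The part of these cells in the droplet gene values was not tested, and the brown marker Zic1 was at 0 in anti-CTHRC1 replicate 7 and under 1 CPM elsewhere.

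Genes that control lipolysis from the cell surface gave the 1 call of edgeR in the pathway lists. Of 20 receptors and signalling genes, 15 had positive values (median 0.46), 8 were higher and 1 lower at an unadjusted p under 0.05, 8 were called higher by DESeq2, and 1 passed the edgeR threshold. That gene was Hcar2, the nicotinic acid receptor that inhibits adipocyte lipolysis, which rose to 14.9, 15.9 and 17.1 CPM in anti-CTHRC1 libraries, against 4.69, 5.83 and 6.50 CPM in IgG libraries (log2 fold change 1.49, SE 0.17, edgeR adjusted p = 0.0305). The call was lost without anti-CTHRC1 replicate 5, 7 or 39 (edgeR adjusted p = 0.0797, 0.190 and 0.300) and without IgG replicate 18 (0.125). Adrb3, the adrenergic receptor that stimulates lipolysis in adipocytes, had 54.1, 112 and 86.0 CPM in anti-CTHRC1 libraries, against 25.0, 13.5 and 12.7 CPM in IgG libraries. Its groups lay far apart, with a log2 fold change of 2.30 (SE 0.36), an edgeR adjusted p of 0.0726 and a DESeq2 adjusted p of 1.35e-09. The lactate receptor gene Hcar1 (1.97, SE 0.40) and the prostaglandin E2 receptor gene Ptger3 (1.86, SE 0.32), both coupled to inhibition of lipolysis, had log2 fold changes of similar size (edgeR adjusted p = 0.112 and 0.0869).

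Among 10 tested lipase partners and other lipases, 9 had positive values (median 0.62) and 8 were higher at an unadjusted p under 0.05, but 0 passed the edgeR threshold and 4 were called by DESeq2. Pnpla3, a relative of ATGL, had 27.8, 95.1 and 65.6 CPM in anti-CTHRC1 libraries, against 18.9, 16.0 and 14.2 CPM in IgG libraries (log2 fold change 1.94, SE 0.42, edgeR adjusted p = 0.123). Its 3 antibody libraries were all above the IgG libraries. The glycerol channel gene Aqp7 had a log2 fold change of 0.79 (SE 0.20) and the phospholipase gene Ddhd2 of 0.58 (SE 0.15). Abhd5, the ATGL activator, had 86.5, 95.5 and 98.1 CPM in anti-CTHRC1 libraries, against 54.5, 49.1 and 90.9 CPM in IgG libraries, and so overlapped.

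Of 16 triglyceride synthesis genes, 11 had positive values (median 0.33), with 5 higher at an unadjusted p under 0.05, 0 past the edgeR threshold and 3 called by DESeq2. Gpd1, which makes the glycerol phosphate backbone, had 811, 2635 and 1871 CPM in anti-CTHRC1 libraries, against 883, 582 and 574 CPM in IgG libraries. IgG replicate 14 was above anti-CTHRC1 replicate 5, and the log2 fold change was 1.38 (SE 0.43, edgeR adjusted p = 0.199). The acyltransferase genes Agpat2 and Agpat3, which add the next fatty acid, had log2 fold changes of 1.32 (SE 0.32) and 0.64 (SE 0.20).

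Other droplet surface genes were more mixed: of 15 tested, 11 had positive values (median 0.28), with 1 higher at an unadjusted p under 0.05, 0 past the edgeR threshold and 1 called by DESeq2. That gene was Bscl2, which encodes seipin, the protein at the site of droplet formation (log2 fold change 0.75, SE 0.23). Cav1, a caveolar coat gene, had 0.42 (SE 0.20), and Hsd17b13 was near absence at under 1 CPM in each library. Among 11 genes of fatty acid uptake, 10 had positive values (median 0.49), 3 were higher at an unadjusted p under 0.05, 0 passed edgeR and 2 were called by DESeq2. The DESeq2 calls were the fatty acid binding protein genes Fabp5 (0.80, SE 0.17) and Fabp4 (0.97, SE 0.36), and Vldlr, a lipoprotein receptor gene, had 0.26 (SE 0.10). Among 10 regulators, 8 had positive values (median 0.56), 3 were higher at an unadjusted p under 0.05, 0 passed edgeR and 3 were called by DESeq2. The 3 were Mlxipl, which encodes the glucose-responsive factor ChREBP (1.51, SE 0.36), Srebf1, a factor of fatty acid synthesis (1.31, SE 0.30), and Cebpa, an adipocyte differentiation factor (1.09, SE 0.27).

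The profiles of Plin1 and Plin2 over the 6 libraries resembled different genes. Likeness was measured as the root mean square difference of log2 CPM, each gene centred on its own mean, over 14895 genes with a mean of 1 CPM or more. The 5 nearest to Plin1 were Duox1 (0.06), Car3 (0.08), Lgals12 (0.10), Pfkfb1 (0.14) and A530016L24Rik (0.15). Car3, a carbonic anhydrase, is itself on the adipocyte list, and Lgals12 encodes a galectin of lipid droplets. The 5 nearest to Plin2 were Flad1 (0.05), Hadha (0.07), Ptgr2 (0.07), Aldoa (0.07) and Uqcrc2 (0.07). Hadha is a gene of mitochondrial fatty acid oxidation, Aldoa of glycolysis and Uqcrc2 of the respiratory chain. Among the droplet genes, the nearest pair was Lipe and Dgat1 (0.18), followed by Plin2 and Plin3 (0.26), and the farthest were Plin4 and Dgat2 (0.85) and Plin1 and Plin4 (0.84). These values rest on 6 libraries that share their depth and tissue and are a description.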

How the data were processed

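The authors deposited 1 table with whole-number counts per gene for 6 aorta libraries, made with a stranded total RNA kit, per the labels' protocols. The FPKM values in the same table were normalised to length and depth by the authors, per the file headers. GRCm38 is the build named in the submitters' processing notes, along with DESeq2, HISAT2 and StringTie. What each tool did, its version and whether counting used strand are not given in the sources used here. Even numbers made up 56.3% to 57.4% of counts below 60, and a count of both mates per pair was not tested for. Every pair of libraries differed beyond sampling noise, with 40.6 to 371 for chi-square over its degrees of freedom.

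The counts of 3 anti-CTHRC1 and 3 IgG libraries were compared with edgeR 4.0.16 in R 4.3.3 (filterByExpr, TMM, robust quasi-likelihood F-test, two-sided, Benjamini-Hochberg over 19241 genes, threshold 0.05), with no covariate. CPM values are TMM-scaled, and log2 CPM has 0.1 CPM added, except in the ratios and the likeness values. The ratios had nothing added, and the likeness values used the log2 CPM of edgeR, which adds a small count of its own. The biological coefficient of variation was 0.397. On simulated counts for this comparison, which spanned 18621 genes, edgeR found 28 of 100 genes set to a 2-fold change and 76 of 100 set to a 4-fold change, and 9 of its calls were false. Alternatives were DESeq2 1.42.0, limma-voom (limma 3.58.1), DESeq2 size factors, other filters, library sizes without mitochondrial and haemoglobin genes, limma on log2(FPKM + 1) or log2(FPKM + 0.1), a threshold of 0.10, and leaving out libraries. The count of genes with no overlap without named libraries was added after the data were seen, as were the shares of all genes for the relative levels and for each library left out.

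The 10 genes, the lists and the alternatives were chosen with earlier results of these data known. Named genes were the 10, in each pathway list those past the threshold and up to 3 with the smallest p, in each marker list up to 3 with the highest CPM, and the 5 with profiles nearest to Plin1 and to Plin2. Adipoq, Lep, Abhd5, G0s2 and other called or near-zero markers were named beyond that rule, after their values were seen or as partners in a ratio. Not every marker that the rule selects is named. Aadac and Zic1 had too few counts to be tested, and Ldaf1 was not found under that symbol.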

Additional observations from a re-analysis of the deposited data

How the results depend on the processing

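Over all genes, edgeR called 61, and the count was 95 with no filter, 98 at a mean of 5 CPM, 234 at a threshold of 0.10, 1584 with DESeq2, and 0 with anti-CTHRC1 replicate 39 and IgG replicate 14 both left out (2056 at an unadjusted p under 0.05). Leaving out each library gave 0 to 227 calls with edgeR. With DESeq2 it gave 1949, 917 and 732 for anti-CTHRC1 replicates 5, 7 and 39 left out, and 1872, 1016 and 2506 for IgG replicates 14, 18 and 20. Of the 10 droplet and lipolysis genes, 0 passed in any edgeR or limma setting run (6 at an unadjusted p under 0.05 in edgeR with all libraries), against 3 with DESeq2 and 1 to 6 with DESeq2 leaving out each library. The count of genes with no overlap was 4 to 8 over the same libraries left out, an alternative chosen after seeing the data. The median log2 fold change of the 10 was 0.52 to 1.19, and each gene was positive in all 22 alternatives. These alternatives are not separate checks. The threshold of 0.10 leaves the fold changes as they were, and edgeR and DESeq2 fits without the same library gave nearly the same values. Over the libraries left out, Abhd5/Pnpla2 was -0.35 to 0.053 and G0s2/Pnpla2 was -0.72 to 0.33, so both could change sign, and the cause was not tested. No paired analysis was possible because the groups share no replicate number. With 3 libraries a group, simulated 2-fold changes were mostly missed, so a value that misses the threshold does not show that a gene did not differ.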
